A study of Mus musculus with 6 samples.

Results

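Integrin and laminin subunits were followed in mouse osteosarcomas with and without SKP2, the substrate-recognition subunit of a ubiquitin ligase that marks cell cycle inhibitors for destruction. Members were all genes whose symbol names an integrin alpha or beta chain or a laminin alpha, beta or gamma chain, leaving out the integrin-binding proteins Itgb1bp1, Itgb1bp2 and Itgb3bp and the integrin-like gene Itgbl1. This gave 38 genes, 27 integrin and 11 laminin, of 56196 genes listed. Polyadenylated RNA was sequenced from 3 triple knockout tumours (TKO, with Osx1-Cre, the floxed alleles Rb1lox/lox and p53lox/lox, and SKP2-/-) and 3 double knockout tumours with intact SKP2 (DKO, with Osx1-Cre, Rb1lox/lox and p53lox/lox). Osx1-Cre removes the floxed parts of Rb1 and p53 in cells that express the osteoblast precursor factor Osterix (gene Sp7), so both groups carry the same floxed tumour suppressor alleles in that lineage. In each group replicate 1 came from a male and replicates 2 and 3 from females. The labels give neither age nor tumour site, and do not say that each tumour came from a different animal, so each p-value reflects only how far these tumours spread, which may in part be technical.

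Integrins are cell surface receptors made of an alpha and a beta chain that tie the cytoskeleton to the matrix or to other cells. The alpha chain largely sets the ligand: collagen, the RGD (arginine-glycine-aspartate) sequence of fibronectin and related proteins, laminin, or, in the leukocyte group that pairs with Itgb2, counter-receptors such as ICAMs and complement fragments. Laminins are secreted trimers of an alpha, a beta and a gamma chain that form the sheet of a basement membrane together with type IV collagen, nidogen and perlecan.

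Levels are given as CPM, a gene's count scaled by the library total after TMM correction. Gene counts totalled 22488819, 21299187 and 20002918 in TKO1, TKO2 and TKO3 and 21581482, 18707108 and 17063231 in DKO1, DKO2 and DKO3. Skp2 reads were absent from every TKO library (0 counts each), while the DKO libraries held 20, 64 and 46 of them, as the labels state. Whole-gene counts do not check the floxed deletions: Rb1 averaged 62.7 ± 25.1 CPM in TKO and 20.5 ± 2.36 CPM in DKO (SD, n = 3; adjusted p = 0.0419, edgeR), and Trp53 averaged 22.6 ± 14.6 CPM in TKO and 6.73 ± 0.672 CPM in DKO (adjusted p = 0.115). The TKO libraries were less alike (correlation of log2 CPM across genes 0.81 to 0.92) than the DKO libraries (0.93 to 0.95), and TKO1 was the most distant of them. Sp7 itself had 0, 206 and 432 CPM in TKO1, TKO2 and TKO3, against 7.94, 0 and 0.414 CPM in DKO1, DKO2 and DKO3. The summed level of 9 osteoblast and osteosarcoma markers was 1393 CPM for TKO1, 53621 and 75918 CPM for TKO2 and TKO3, and 15666 to 22849 CPM in DKO, where type I collagen made up nearly all of the sum. The 5 erythroid markers summed to 88.5 to 1163 CPM in TKO and 0.496 to 1.27 CPM in DKO. Type I collagen (Col1a1 and Col1a2) made up most of the osteoblast marker sum in every tumour, in TKO1 with 208 and 1109 CPM. Thus TKO1 was far below the other tumours in that sum mainly through type I collagen, although all are labelled osteosarcoma. Runx2 had 58.2 CPM in TKO1 and 96.8, 83.0 and 94.8 CPM in DKO1, DKO2 and DKO3. Outside type I collagen, most of these markers were low in DKO too. Dmp1 had 16.3 CPM in TKO1 and 0 CPM in DKO, and Ibsp had 22.8 CPM in DKO1 and 0 CPM in TKO1, DKO2 and DKO3. Alpl had 0.0831 CPM in TKO1 and 8.73, 0.764 and 18.0 CPM in DKO1, DKO2 and DKO3. The DKO tumours also held almost no red cell, leukocyte or vessel transcripts (sums for leukocytes and vessels are given with the subunits). SKP2 status and these differences in what the samples contained cannot be told apart in any comparison of TKO with DKO that follows.

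The promoters of leukocyte integrins are shown first, because 3 of these genes, Itgal, Itgam and Itgax, were expressed in every TKO tumour and were at or near 0 in every DKO tumour. Of the 8 leukocyte integrin genes, 4 had an entry in the RefSeq promoter table (GRCm38.p6). The 250 bases before each start site are printed 5′ to 3′ on the strand of the gene. Itgam (chr7:128062390-128062639, plus strand) and Itgax (chr7:128129300-128129549, plus strand) rose in TKO. Itgb7 (chr15:102231936-102232185, minus strand) did not pass the test and Itgb2l (chr16:96443615-96443864, minus strand) had too few counts to be tested. Capitals mark GAGGAA or GAGGAAGT, letters bound by the myeloid factor PU.1, on either strand, the longer motif containing the shorter.
Itgam: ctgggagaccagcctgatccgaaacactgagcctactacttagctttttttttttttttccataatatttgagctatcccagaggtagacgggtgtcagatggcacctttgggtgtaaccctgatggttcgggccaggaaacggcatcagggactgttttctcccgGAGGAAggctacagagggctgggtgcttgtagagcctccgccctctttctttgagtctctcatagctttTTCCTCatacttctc
Itgax: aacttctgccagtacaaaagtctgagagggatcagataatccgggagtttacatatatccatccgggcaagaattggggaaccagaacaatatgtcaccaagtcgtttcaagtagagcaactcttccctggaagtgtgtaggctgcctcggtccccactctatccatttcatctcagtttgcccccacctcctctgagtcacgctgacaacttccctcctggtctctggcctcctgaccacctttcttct
Itgb7: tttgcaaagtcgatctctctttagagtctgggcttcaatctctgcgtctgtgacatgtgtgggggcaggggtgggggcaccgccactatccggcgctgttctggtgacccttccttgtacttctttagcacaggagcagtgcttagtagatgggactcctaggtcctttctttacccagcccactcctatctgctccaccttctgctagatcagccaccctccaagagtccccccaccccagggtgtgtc
Itgb2l: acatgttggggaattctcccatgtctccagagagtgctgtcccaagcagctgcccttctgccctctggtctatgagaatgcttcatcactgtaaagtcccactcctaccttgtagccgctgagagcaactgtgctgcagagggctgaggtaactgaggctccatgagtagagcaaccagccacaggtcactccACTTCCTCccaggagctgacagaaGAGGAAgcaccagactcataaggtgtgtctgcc
The shorter motif was present in Itgam, with its first base 84 bases before the start site on the plus strand and 15 bases before it on the other, and in Itgb2l. The longer motif was present in Itgb2l, the gene with the fewest counts of the 4, and in none of the other 3 windows. Over all 32851 windows of 250 bases in the table, 23.3% held GAGGAA and 2.44% held GAGGAAGT. These matches are letters in a window and show no binding.

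Of the 38 subunits 35 had enough counts to be tested, and the other 3 (Itgad, Itgb2l and Itgb6) are given by their counts. Of the 35 tested, 7 rose in TKO and 2 fell (edgeR's quasi-likelihood test, Benjamini-Hochberg adjusted p under 0.05 over 15361 genes). Over all genes tested, 4.89% rose and 2.47% fell, 7.36% in all. The risers were the leukocyte chains Itgal, Itgam, Itgax and Itgb2 and the chains Itga3, Itga9 and Itga10, and the fallers were the fibronectin receptor chain Itga5 and the laminin chain Lamc1. TKO and DKO values did not overlap in 15 of the 35 subunits, 10 higher and 5 lower in TKO, against 32.9% of all genes tested (17.3% higher and 15.6% lower). The median log2 fold change was 2.01 over the 24 integrins tested and -0.92 over the 11 laminins, against 0.09 over all genes tested. Itgal, Itgam and Itgax reached the count filter in TKO libraries alone and so had to differ, and these counts and medians are descriptions.

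**Figure D1:**
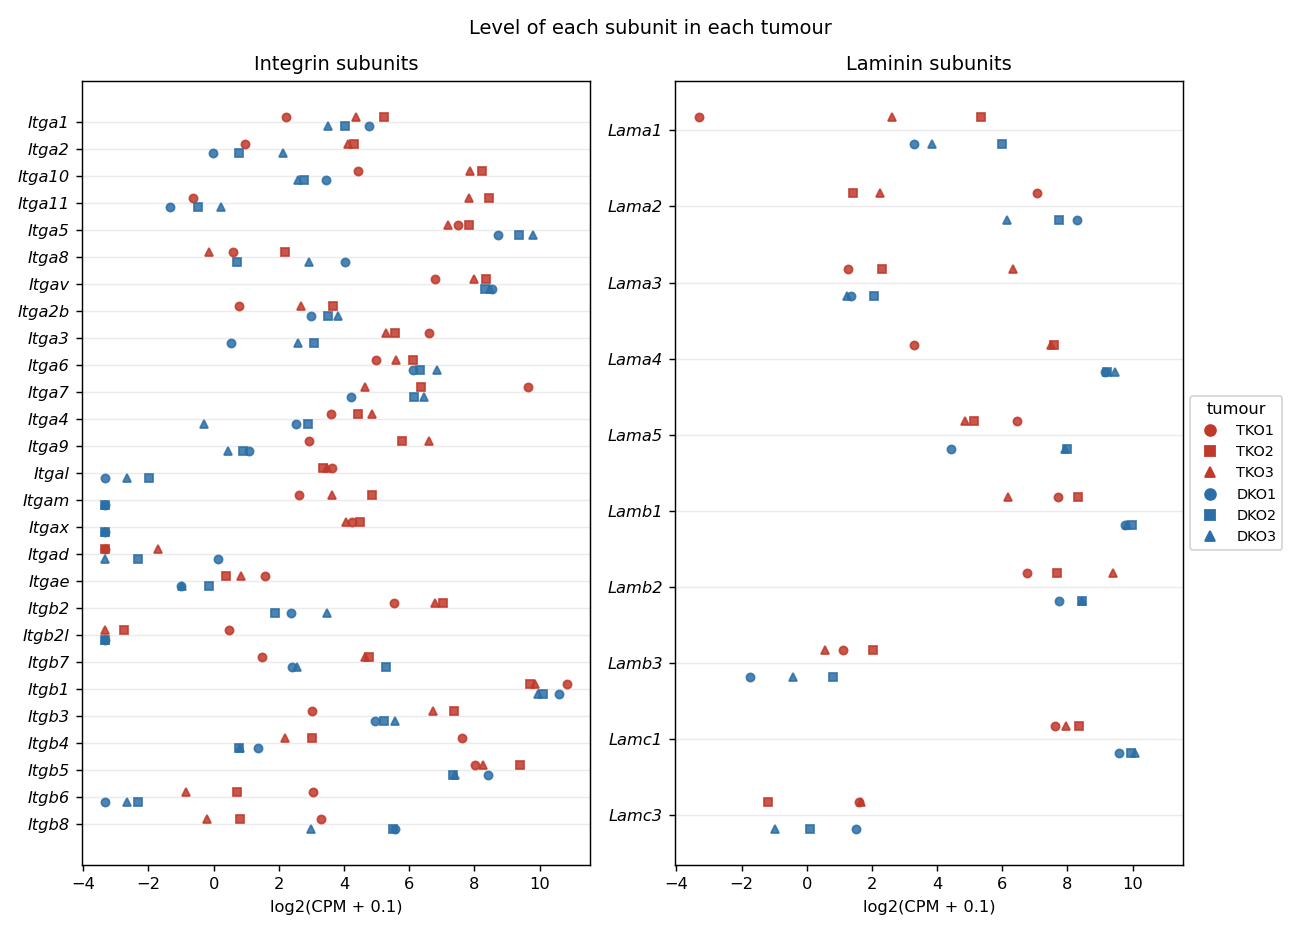
Level of the 27 integrin subunits and of all but 1 of the 11 laminin subunits in each tumour, as log2(CPM + 0.1), with TKO tumours (red, upper position of each row) and DKO tumours (blue, lower position); circles, squares and triangles are replicates 1, 2 and 3. Itgam and Itgax lie at the left edge (0 counts) in every DKO tumour, and the TKO points of Itga5, Lamb1, Lamc1 and Lama4 all lie left of the DKO points.

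The calls depended on which libraries entered, as did those over all genes. Without TKO1 all 9 calls were kept, and 10 subunits rose and 5 fell, while calls over all genes went up to 14.6%. Without TKO2, 4 rose (Itgal, Itgam, Itgax and Itgb2), and without TKO3, 2 rose (Itgal and Itgax), with 0 falling in both cases (edgeR, 5 without TKO2 and 3 without TKO3 at an unadjusted p under 0.05). Over all genes 2.97% were called without TKO2 and 2.04% without TKO3. Without DKO1, Itgax alone rose and 0 fell (4 at an unadjusted p under 0.05), when 39 of all 16486 genes tested were called. Without DKO2 or DKO3, edgeR called 0 subunits in either direction, while 13 and 12 were higher and 4 and 4 lower at an unadjusted p under 0.05. Over all genes it called 2 without DKO2 and 0 without DKO3, so these counts of 0 are not particular to the subunits. With sex as a covariate the calls of Itga3, Itga9 and Itga10 were lost, and by limma-voom those of Itga9 and Itga10. With no filter on low counts the call of Itga10 was lost. Itga10 kept its call in 6 of 16 alternatives, the fewest of the 9 subunits. Under the replicate block all 9 were lost. DESeq2 kept all 9. When only genes with at least 1 CPM in a library of each group were tested, 1 subunit rose (Itgb2) and 0 fell (edgeR, 5 lower at an unadjusted p under 0.05), with 1.19% of all genes called. That filter leaves out Itgal, Itgam and Itgax, and Itga10, Itga5, Itga3, Itga9 and Lamc1 had adjusted p-values of 0.0619 to 0.0727 under it. All 9 subunits kept their direction in every alternative that tested them.

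The leukocyte alpha chains Itgal, Itgam and Itgax were at or near 0 in DKO tumours and present in all TKO tumours. Itgal, Itgam, Itgax and Itgad lie in one stretch of chromosome 7 (127296260 to 128223816, GRCm38) and code for the alpha chains that pair with Itgb2. Itgax, the alpha chain of the complement receptor of dendritic cells and macrophages, had 18.7, 22.2 and 16.5 CPM in TKO1, TKO2 and TKO3 and 0 counts in each DKO library, at least 362-fold higher in TKO against a floor of 3 counts over the DKO group (adjusted p = 0.0111, edgeR). Itgam, the myeloid chain that pairs into complement receptor Mac-1, had 6.1, 28.9 and 12.3 CPM in TKO and 0 counts in each DKO library, at least 290.1-fold higher against the same floor (adjusted p = 0.0214). Itgal, the chain of the lymphocyte and myeloid receptor LFA-1, was even between TKO tumours, at 12.2, 10.04 and 11.1 CPM, against 0, 0.153 and 0.0592 CPM in DKO1, DKO2 and DKO3 (log2 fold change 7.18, SE 0.96, adjusted p = 0.0145). Since these 3 chains entered the test through TKO alone, their p-values add little to the counts themselves. Each of these chains separated the groups completely, and TKO1 was the lowest TKO tumour for Itgam only.

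Their shared partner Itgb2 was not silent in DKO. It had 46.5, 132 and 109.6 CPM in TKO1, TKO2 and TKO3 and 5.11, 3.56 and 11.1 CPM in DKO1, DKO2 and DKO3 (log2 fold change 3.87, SE 0.61, adjusted p = 0.0214, edgeR). Thus Itgb2 stood at 6.58 ± 3.96 CPM in DKO (SD, n = 3), where the summed counts of its alpha partners were 4 for Itgal and 0 for Itgam and Itgax. Itgad, the remaining partner on chromosome 7, had 0, 0 and 4 counts in the TKO libraries and 20, 2 and 0 counts in the DKO libraries in replicate order, and the muscle gene Cox6a2 overlaps it. Reads from overlapping genes cannot be told apart by strand in these libraries. By gene span, other genes with reads also overlap Itga10 (Gm42957), Itga9 (Gm2415), Itga1 (Gm49395, Pelo and Gm10734) and Lamb3 (Hsd11b1, G0s2 and Gm37691).

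The intraepithelial lymphocyte chain Itgae and its partner Itgb7 did not pass. Itgae had 2.91, 1.2 and 1.68 CPM in TKO and 0.397, 0.815 and 0.414 CPM in DKO, with no overlap (adjusted p = 0.139, edgeR), and the gene Haspin lies within it. Itgb7, which also pairs with Itga4 in gut-homing lymphocytes, had 2.7, 27 and 25.1 CPM in TKO and 5.16, 38.6 and 5.74 CPM in DKO, with the highest value in a DKO tumour (adjusted p = 0.948). Itgb2l, a close relative of Itgb2 whose reads may be split with it, had 31, 1 and 0 counts in the TKO libraries and 0 counts in each DKO library.

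Leukocyte markers moved with these chains. All 7 pan-leukocyte markers rose, and their sum was 354 to 1248 CPM in TKO and 3.31 to 6.8 CPM in DKO, with Ptprc at 0, 0.153 and 0 CPM in DKO1, DKO2 and DKO3. Of 10 macrophage markers 8 rose, summing to 853 to 2370.2 CPM in TKO and 28.8 to 156 CPM in DKO, with C1qa, C1qb and C1qc at 0 in DKO. Cd68 and Mertk overlapped between the groups and did not pass (adjusted p = 0.416 and 0.31, edgeR). They made up most of the DKO sum, Cd68 with 5.46, 121 and 90.4 CPM and Mertk with 19.9, 31.6 and 10.8 CPM in DKO1, DKO2 and DKO3. Of 8 neutrophil markers 3 rose (15 to 53.6 CPM in TKO and 1.53 to 4.32 CPM in DKO, with S100a9, Ngp, Csf3r and Elane at 0 in DKO). S100a8 and Camp made up most of the DKO sum. Camp, with too few counts to be tested, had 0.415, 1.68 and 0.457 CPM in TKO and 2.33, 0.153 and 0.355 CPM in DKO. Of 9 T and NK cell markers 1, Lck, could be tested and 0 rose (edgeR, 0 at an unadjusted p under 0.05). The 9 summed to 2.49 to 11.7 CPM in TKO and 1.79 to 4.38 CPM in DKO. Lck alone gave 1.79, 4.28 and 2.25 CPM of the sum in DKO1, DKO2 and DKO3. Cd3d, Cd3g, Cd2, Trac, Cd8a, Nkg7 and Klrb1c had too few counts to be tested and were at 0 in DKO. Ptprc, Laptm5, Lcp1, Tyrobp, Adgre1, C1qa, C1qb, C1qc, Fcgr1, S100a9, Ngp and Csf3r reached the count filter in TKO libraries alone. So did Pf4 and some endothelial, muscle, pericyte and epithelial markers given below. The counts of markers that rose are therefore descriptions (4.89% of all genes tested rose). The part of leukocyte content in the integrin values was not tested. In bulk tumour RNA, fewer cells of a type and less RNA per cell cannot be told apart. TKO1 had the lowest pan-leukocyte sum of the TKO tumours, 354 CPM against 1127 and 1248 CPM in TKO2 and TKO3, while its Itgal and Itgax values were not the lowest of the 3.

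**Figure D2:**
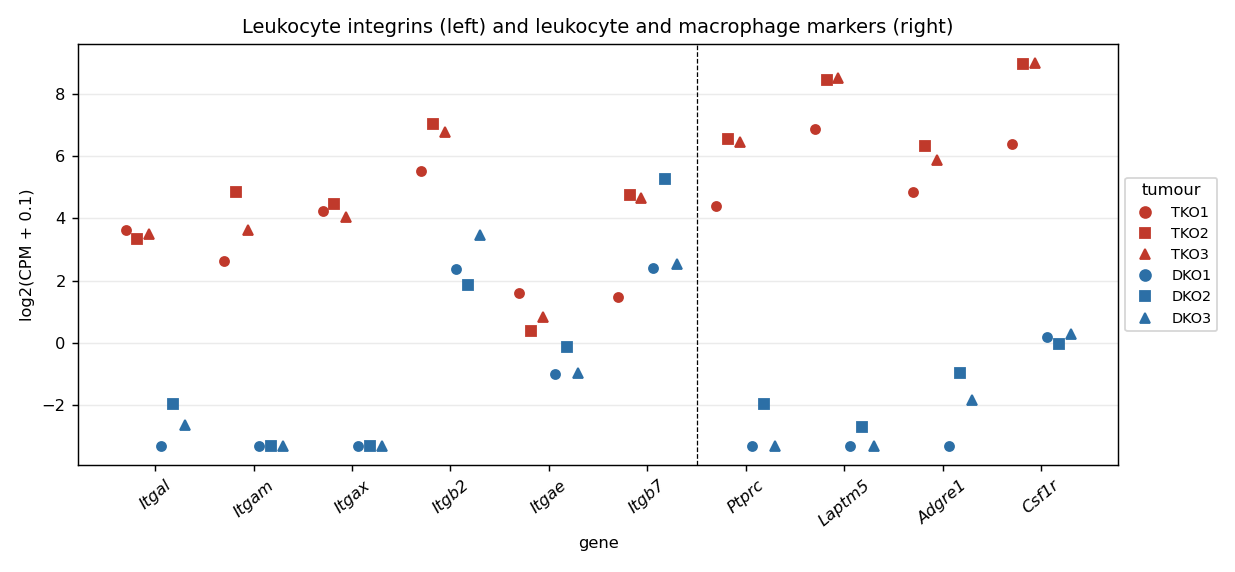
Level of 6 leukocyte integrin chains (left of the dashed line) and 4 leukocyte and macrophage markers (right) in each tumour, as log2(CPM + 0.1), TKO in red left of DKO in blue. Itgal, Itgam, Itgax and Itgb2 separate the groups as the markers do, whereas Itgb7 overlaps; DKO values of Itgb2 stay above those of Ptprc.

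The make-up of the integrin alpha chains differed between the groups, Itga5 being lower in TKO. Itga5, which pairs with Itgb1 as the main fibronectin receptor, had 179, 228 and 145 CPM in TKO1, TKO2 and TKO3 and 420.2, 658 and 887 CPM in DKO1, DKO2 and DKO3. Its mean was 184 ± 41.7 CPM in TKO and 655 ± 233 CPM in DKO (SD, n = 3), a fall of 3.55-fold (log2 fold change -1.83, SE 0.38, adjusted p = 0.0363, edgeR). On a scale corrected for exon length (CPM per kb), Itga5 made up 20, 17.9 and 15.9% of the summed level of all integrin alpha chains in TKO1, TKO2 and TKO3 and 61.6, 70.9 and 73.6% in DKO1, DKO2 and DKO3. It was the leading alpha chain in each DKO tumour and in no TKO tumour. Fn1, the fibronectin gene, had 2158, 5192 and 2964 CPM in TKO and 9761, 7874 and 7340.3 CPM in DKO, lower in every TKO tumour without passing the test (adjusted p = 0.16).

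The other RGD-binding chains did not pass. Itgav, which pairs with several beta chains to bind vitronectin, osteopontin and latent TGF-beta, had 109.9, 328 and 256 CPM in TKO and 371, 322 and 359 CPM in DKO (adjusted p = 0.419, edgeR). Itga8, a chain of smooth muscle and kidney mesenchyme that binds nephronectin, had 1.41, 4.47 and 0.813 CPM in TKO and 16.2, 1.53 and 7.51 CPM in DKO (adjusted p = 0.289). Its ligand gene Npnt, by contrast, had 19.6, 394 and 417 CPM in TKO and 0.695, 1.02 and 1.24 CPM in DKO (log2 fold change 8.13, SE 1.26, adjusted p = 0.0207). Itga2b, the platelet fibrinogen receptor chain, overlapped between the groups (1.62, 12.6 and 6.25 CPM in TKO, 7.84, 11.3 and 14.0 CPM in DKO; adjusted p = 0.593). Of 8 platelet and megakaryocyte markers 1, Pf4, rose, and it made up most of their sum of 12.2 to 34.5 CPM in TKO, against 0.695 to 3.05 CPM in DKO. Gp9 was at 0 in DKO, Treml1 was at 0 in all 6 tumours, and Gp1ba had 1.79, 0.77 and 0.51 CPM in TKO and 0.50, 2.34 and 1.89 CPM in DKO. The part of platelets in Itga2b was not tested.

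The collagen receptor chains Itga10 and Itga11 were high in TKO2 and TKO3. Itga10, a chain of the collagen receptor of cartilage, had 21.6, 304 and 234 CPM in TKO1, TKO2 and TKO3 and 10.8, 6.67 and 5.86 CPM in DKO1, DKO2 and DKO3 (log2 fold change 4.58, SE 0.95, adjusted p = 0.0365, edgeR). Itga11, the fibrillar collagen receptor of mesenchymal cells, had 0.54, 353 and 228 CPM in TKO and 0.298, 0.611 and 1.06 CPM in DKO. TKO1 lay within the DKO values of Itga11, and the gene did not pass with all tumours (log2 fold change 8.21, SE 2.05, adjusted p = 0.0601), with an adjusted p of 0.00157 without TKO1, 0.104 to 0.202 without any other single tumour, 3.95e-08 by DESeq2 and 0.477 by limma-voom. Itga2, shared by platelets, epithelia and osteoblast lineage cells, had 1.83, 19.8 and 17.5 CPM in TKO and 0.893, 1.63 and 4.26 CPM in DKO (adjusted p = 0.178; 0.0374 without TKO1 and 0.216 to 0.4 without any other tumour). Itga1, which binds collagen IV, overlapped between the groups at 4.57, 37.1 and 20.4 CPM in TKO and 26.8, 16.3 and 11.2 CPM in DKO (adjusted p = 0.897). Itga10 and Itga11 together with Itga5 were the leading alpha chains per kb in TKO2 and TKO3, Itga11 at 26.6 and 23.9% and Itga10 at 22.6 and 24.2% of the alpha sum, against at most 1.5% for either in DKO. The osteoblast marker sum was likewise 53621 and 75918 CPM in TKO2 and TKO3 and 1393 CPM in TKO1; its part in these values was not tested.

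Itga9, which binds tenascin-C and osteopontin, rose in TKO, at 7.43, 54.3 and 98.0 CPM in TKO1, TKO2 and TKO3 and 2.03, 1.78 and 1.24 CPM in DKO1, DKO2 and DKO3 (log2 fold change 4.97, SE 0.94, adjusted p = 0.0311, edgeR). Its relative Itga4, the chain by which leukocytes bind VCAM1 and fibronectin, had 12, 21.5 and 29.0 CPM in TKO and 5.66, 7.28 and 0.71 CPM in DKO. The Itga4 groups did not overlap, yet the test was not passed (log2 fold change 2.19, SE 0.83, adjusted p = 0.161). The endothelial markers, 10 of 10 higher, summed to 181 CPM in TKO1, 915 CPM in TKO2 and 642 CPM in TKO3. In DKO they summed to 9.83 to 11.4 CPM, with Emcn and Cldn5 at 0 there. Over all genes tested 4.89% rose, and Emcn, Cldn5, Tie1 and Esam reached the count filter in TKO libraries alone. Itga9 is also expressed in lymphatic endothelium and muscle, and the part of vessels in its rise was not tested.

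The laminin-binding chains split. Itga3, the chain of the laminin receptor of epithelia and of many tumour cells, rose, TKO1, TKO2 and TKO3 having 97.8, 47.2 and 39.3 CPM against 1.34, 8.35 and 5.97 CPM in DKO1, DKO2 and DKO3 (log2 fold change 3.56, SE 0.74, adjusted p = 0.0366, edgeR). Itga6, a second laminin receptor chain, had 31.6, 69.1 and 48.5 CPM in TKO and 69.2, 80.0 and 115 CPM in DKO, lower in every TKO tumour without passing the test (log2 fold change -0.82, SE 0.37, adjusted p = 0.221). Itga7, the muscle laminin receptor chain, had its highest value in a single tumour, 806 CPM in TKO1 and 82.7 and 25 CPM in TKO2 and TKO3, against 18.4, 70.4 and 88.3 CPM in DKO1, DKO2 and DKO3. Its log2 fold change was 2.37 (SE 1.25, adjusted p = 0.291) and became -0.14 without TKO1. Of 12 skeletal muscle markers 9 rose (Myh4, Myh1, Ckm, Tnni2 and Actn2 of them reached the count filter in TKO libraries alone). Their sum, mostly contractile genes, was lowest of the TKO tumours in TKO1 (610.2 CPM, against 11774 CPM in TKO2, 1979 CPM in TKO3 and 4.76 to 17.9 CPM in DKO). The myogenic factor genes Myog and Myod1 had the order of Itga7 instead, with Myog at 115, 4.90 and 2.95 CPM and Myod1 at 90.2, 5.24 and 1.42 CPM in TKO1, TKO2 and TKO3 and both at 0 in DKO. The part of muscle or myogenic cells in Itga7 was not tested.

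Itgb1, the partner of most alpha chains, was the leading beta chain per kb in every tumour, and its group means lay close together. It had 1828, 839 and 926 CPM in TKO1, TKO2 and TKO3 and 1559, 1111 and 997 CPM in DKO1, DKO2 and DKO3 (log2 fold change -0.03, SE 0.43, adjusted p = 0.974, edgeR; 0.03 with library totals as the scale). Itgb5, a partner of Itgav, had 259.9, 677 and 305 CPM in TKO and 339, 162 and 170.3 CPM in DKO (adjusted p = 0.315) and reached 39.8% of the beta sum per kb in TKO2. Itgb3, the Itgav partner of osteoclasts and the Itga2b partner of platelets, had 7.93, 167 and 105 CPM in TKO and 31.1, 37.6 and 47.5 CPM in DKO (adjusted p = 0.422; 0.0176 without TKO1 and 0.535 to 0.768 without any other tumour). Summed over 7 osteoclast markers, TKO1 was likewise lowest among all tumours. The sums were 51.6, 8867 and 9890.0 CPM in TKO1, TKO2 and TKO3 and 788 to 1899 CPM in DKO, there mostly Ctsk and Mmp9. In TKO1 Ctsk, Mmp9 and Atp6v0d2 lay below every DKO tumour, but Acp5 and Ocstamp lay above. Calcr, which was not tested, had 3 counts in TKO1, no more than the floor of 3 counts. Acp5, the 1 of 7 that rose, had 31.4 CPM in TKO1 and 1.04, 1.63 and 0.0592 CPM in DKO, where Calcr was at 0. The part of osteoclasts in Itgb3 was not tested.

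The beta chains of epithelia and of TGF-beta activation were low outside a few tumours. Itgb4, the hemidesmosome chain that pairs with Itga6, had 196 CPM in TKO1 and 7.93 and 4.42 CPM in TKO2 and TKO3, against 2.48, 1.63 and 1.66 CPM in DKO, without overlap and without passing (log2 fold change 5.17, SE 1.54, adjusted p = 0.0946, edgeR; 1.67 without TKO1). Itgb6, an epithelial chain that activates TGF-beta, had 198, 32 and 9 counts in TKO and 0, 2 and 1 counts in DKO, most of them in TKO1. Of 9 epithelial markers 3 rose (Epcam, Cdh1 and the cornified envelope gene Lor, which all reached the count filter in TKO libraries alone). Their sum was 578 CPM in TKO1, 19.8 CPM in TKO2, 26.4 CPM in TKO3 and 3.19 to 7.28 CPM in DKO, with Epcam at 0 in DKO, and Krt18 alone gave 541 CPM of the sum in TKO1; their part in Itgb4 and Itgb6 was not tested. The epidermal keratin genes Krt5 and Krt14 were at 0 in TKO1. Of 7 Schwann cell markers, which mark another cell type with Itga6 and Itgb4, 0 rose or fell (edgeR; 1 higher and 1 lower at an unadjusted p under 0.05), with sums of 81.3 to 164 CPM in TKO and 170.3 to 429.8 CPM in DKO, most of it Pmp22. Itgb8, the Itgav partner that also activates TGF-beta, went the other way without passing, at 9.8, 1.63 and 0.762 CPM in TKO and 47.4, 45.1 and 7.87 CPM in DKO (log2 fold change -3.03, SE 1.11, adjusted p = 0.151; 0.0273 without TKO1 and 0.187 to 0.327 without any other tumour).

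**Figure D3:**
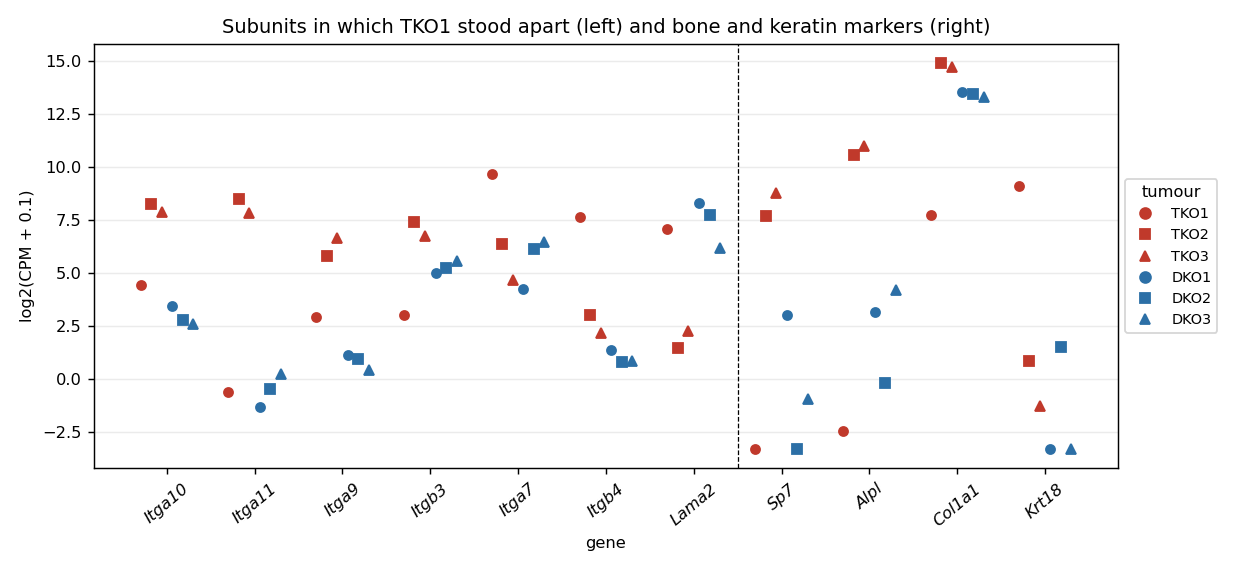
Level of 7 subunits (left of the dashed line) and of bone markers and Krt18 (right) in each tumour, as log2(CPM + 0.1), TKO in red left of DKO in blue. TKO1 (red circle) lies below TKO2 and TKO3 in Itga10, Itga11, Itga9 and Itgb3 and above them in Itga7, Itgb4 and Lama2, and it has the lowest Alpl and Col1a1 and the highest Krt18 of all tumours.

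TKO1 differed from the other TKO tumours in more subunits than any other tumour did from its group. After adding 1 CPM, it was more than 4-fold above both TKO2 and TKO3 in 4 of the 35 subunits tested (Itga7, Itgb4, Itgb8 and Lama2) and more than 4-fold below both in 8 (Itga2, Itga10, Itga11, Itga9, Itgb7, Itgb3, Lama1 and Lama4). Over all genes tested these shares were 1.82% above and 4.92% below. In each of the other 5 tumours at most 2 subunits lay as far from both of its group mates, among them Lama1 in TKO2 (above), Lama3 in TKO3 (above) and Itgb7 in DKO2 (above).

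Lamc1, Lamb1 and Lama4, the most abundant laminin chains of DKO tumours, had lower values in TKO, and Lamc1 alone of the 11 chains passed the test. Lamc1, the gamma chain of most laminins, had 197, 325 and 246 CPM in TKO1, TKO2 and TKO3 and 760.3, 991 and 1085 CPM in DKO1, DKO2 and DKO3. Its mean was 256 ± 64.7 CPM in TKO and 945 ± 167 CPM in DKO (SD, n = 3), a fall of 3.69-fold (log2 fold change -1.88, SE 0.34, adjusted p = 0.0276, edgeR). Lamb1, the beta chain that assembles with Lamc1, had 209, 322 and 71.8 CPM in TKO and 865, 1003 and 901 CPM in DKO (log2 fold change -2.20, SE 0.55, adjusted p = 0.0598; 0.00169 by DESeq2, 0.0462 by limma-voom and 0.0672 to 0.169 leaving out 1 tumour). Lama4, the alpha chain of vessel and mesenchymal laminin, had 9.76, 192 and 182 CPM in TKO and 565, 595 and 702 CPM in DKO (log2 fold change -2.28, SE 0.93, adjusted p = 0.189; 0.0151 without TKO1 and 0.235 to 0.341 without any other tumour). These 3 chains, which assemble with each other into a laminin, were lower in every TKO tumour than in any DKO tumour. Summed per kb, laminin alpha chains gave 16.9 to 26.0 CPM per kb in TKO and 69.0 to 91.6 in DKO.

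The other laminin alpha chains varied widely within groups. Lama2, the alpha chain of muscle and peripheral nerve, had 135, 2.59 and 4.62 CPM in TKO1, TKO2 and TKO3 and 311, 212 and 70.6 CPM in DKO1, DKO2 and DKO3 (log2 fold change -2.06, SE 1.44, adjusted p = 0.417, edgeR; 0.0103 without TKO1 and 0.487 to 0.614 without any other tumour). Lama5, the alpha chain of mature epithelial and vessel basement membranes, had 87.3, 34.8 and 28.8 CPM in TKO and 21.2, 255 and 244 CPM in DKO, where DKO1 was the lowest of all tumours (adjusted p = 0.267). Lama1, the embryonic alpha chain, ran from 0 to 40.6 CPM in TKO and 9.73 to 63.8 CPM in DKO (adjusted p = 0.776). Lama3, the epithelial alpha chain, had 2.28, 4.81 and 80.8 CPM in TKO and 2.48, 4.12 and 2.25 CPM in DKO, so that TKO3 alone was high (adjusted p = 0.183).

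Among the remaining beta and gamma chains the groups overlapped. Lamb2, the beta chain of muscle, nerve and vessel laminins, had 109, 203 and 676 CPM in TKO and 214, 350.4 and 352 CPM in DKO (log2 fold change 0.11, SE 0.66, adjusted p = 0.94, edgeR). It had the highest TKO mean of the laminin chains per kb through TKO3 (111 CPM per kb). In TKO1 and TKO2 it had 17.9 and 33.4 CPM per kb, below Lamc1 at 23.8 and 39.3. Lamb2 made up 45.6, 50.3 and 93.7% of the laminin beta sum per kb in TKO1, TKO2 and TKO3 and 28.7, 36.2 and 38.9% in DKO1, DKO2 and DKO3. Lamb3, which joins Lama3 in the anchoring laminin of epithelia, had 1.37 to 3.99 CPM in TKO and 0.198 to 1.63 CPM in DKO (adjusted p = 0.306), and it was not raised with Lama3 in TKO3, where it had its lowest TKO value. Lamc3 stayed at 0.336 to 3.1 CPM in TKO and 0.414 to 2.78 CPM in DKO (adjusted p = 0.747).

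Markers of cells that make laminin moved unevenly. The endothelial markers were higher in every TKO tumour, while Lama4, Lamb1 and Lamc1 were lower in every TKO tumour. Of 10 pericyte and smooth muscle markers 4 rose, summing to 533 to 2000.1 CPM in TKO and 188 to 499.8 CPM in DKO. Cspg4, Cnn1, Notch3 and Pdgfrb overlapped between the groups. Des, also a skeletal muscle marker, gave 1150 CPM of the sum in TKO2. Acta2 gave 421 CPM of it in TKO1, and Pdgfrb 366 CPM in DKO1. Tagln, too low to be tested, had 30 counts over the TKO libraries and was at 0 in DKO. Of 6 fibroblast markers 0 rose or fell (edgeR; 1 higher and 0 lower at an unadjusted p under 0.05), and their sum was 1119 CPM in TKO1, 9960.0 CPM in TKO2, 3230.1 CPM in TKO3 and 6510.5 to 14758 CPM in DKO. The part of cell content in the laminin values was not tested.

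**Figure D4:**
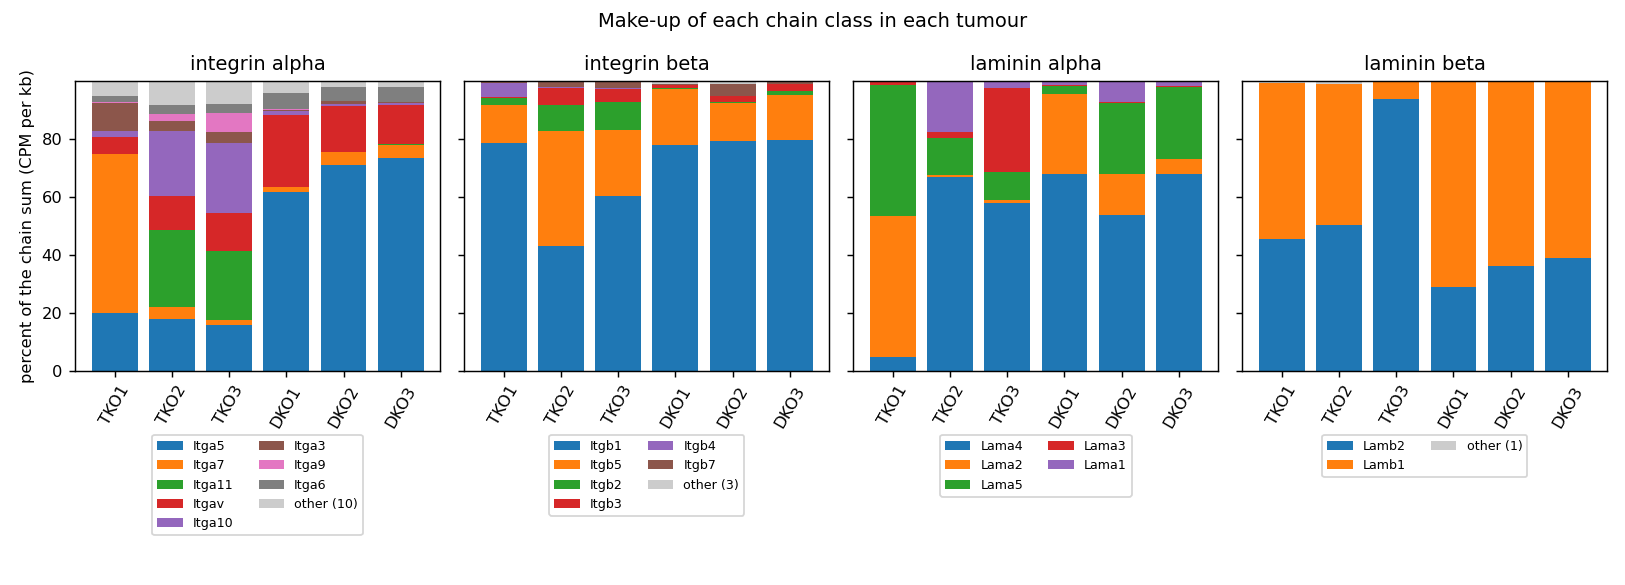
Make-up of the integrin alpha, integrin beta, laminin alpha and laminin beta chains in each tumour, as the percent of the summed CPM per kb (bars from 0 to 100%); chains that never reached 4% are grey, and TKO tumours stand left of DKO tumours. Itga5 fills 61.6 to 73.6% of the alpha bars in DKO and 15.9 to 20% in TKO, Itgb1 is the largest beta block throughout, and Lamb2 fills 93.7% of the laminin beta bar of TKO3.

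Genes that work with these subunits were taken as 4 lists of 93 genes, of which 86 could be tested: 6 rose (6.98%) and 3 fell (3.49%), against 4.89% and 2.47% of all genes tested, with a median log2 fold change of 0.22 against 0.09. Without TKO3, 2 rose and 0 fell, and leaving out any single DKO library, edgeR called 0 in either direction (14 or 15 higher and 5 or 6 lower at an unadjusted p under 0.05), where over all genes it called 39, 2 and 0 without DKO1, DKO2 and DKO3. Of 32 adapters and kinases tested at the integrin tail, 2 rose and 1 fell. Fermt3, the kindlin of blood cells that activates Itgb2 and Itgb3, had 22.9, 65.9 and 69.5 CPM in TKO and 1.89, 2.49 and 2.13 CPM in DKO (log2 fold change 4.60, SE 0.53, adjusted p = 0.0123, edgeR). Nedd9, a docking protein of focal adhesions, had 233, 88.7 and 106 CPM in TKO and 28.8, 17.2 and 16.4 CPM in DKO (adjusted p = 0.0257). Apbb1ip, the Rap1 effector that brings talin to the integrin, had 46.0, 28.3 and 26.1 CPM in TKO and 76.8, 137 and 118 CPM in DKO (log2 fold change -1.73, SE 0.36, adjusted p = 0.0358). The general adapters Tln1 and Flna, the most abundant of the list, averaged 529 ± 123 and 1454 ± 521 CPM in TKO and 479.5 ± 58.6 and 1145 ± 312 CPM in DKO (SD, n = 3; adjusted p = 0.81 and 0.639).

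Of 21 integrin ligands tested, 4 rose and 0 fell (edgeR, with 2 lower at an unadjusted p under 0.05), where 4.89% of all genes tested rose and 2.47% fell. Beside Npnt these were Icam2, the endothelial ligand of LFA-1 (2.12, 13.8 and 12.2 CPM in TKO and 0, 0.0509 and 0 CPM in DKO, adjusted p = 0.0195), Egfl7, an endothelial matrix protein (mean 20.4 ± 14.3 CPM in TKO and 0.815 ± 0.0715 CPM in DKO, adjusted p = 0.0243), and Cdh1, E-cadherin, the ligand of Itgae (5.81, 4.13 and 12.9 CPM in TKO and 0, 0 and 0.177 CPM in DKO, adjusted p = 0.0313). Icam2 and Cdh1 reached the count filter in TKO libraries alone. Postn, a matrix ligand of Itgav, ran from 64.4 to 11457 CPM in TKO and 407 to 2079 CPM in DKO (adjusted p = 0.538).

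Of 18 basement membrane partners of laminin, 0 rose (edgeR, with 4 higher at an unadjusted p under 0.05) and 1 fell. Over all genes tested 4.89% rose and 2.47% fell, so a single faller here or among the laminin receptors below is no result about either list. Nid1, the nidogen that links laminin gamma chains to collagen IV, had 28.9, 121 and 60.2 CPM in TKO and 431, 509.6 and 1774 CPM in DKO (log2 fold change -3.69, SE 0.80, adjusted p = 0.0421). Col4a1 was lower in every TKO tumour as well (169, 1339 and 607 CPM in TKO and 2825, 2017 and 3476 CPM in DKO) without passing (adjusted p = 0.155). Sparc, a collagen-binding matrix protein, overlapped, at 425 to 10831 CPM in TKO and 2435 to 5159 CPM in DKO (adjusted p = 0.612). Of 15 other laminin receptors tested, 0 rose (edgeR; 1 higher at an unadjusted p under 0.05) and 1 fell: Sgcd, a sarcoglycan of the dystroglycan complex, had 7.35, 12.7 and 5.54 CPM in TKO and 54.1, 52.4 and 38.4 CPM in DKO (log2 fold change -2.50, SE 0.41, adjusted p = 0.0216). The syndecan Sdc2 averaged 243 ± 17.1 CPM in TKO and 839 ± 429 CPM in DKO (SD, n = 3; adjusted p = 0.0697), and Rpsa, the laminin-binding ribosomal protein, 1315 ± 373 CPM in TKO and 1312 ± 257 CPM in DKO (adjusted p = 0.997).

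**Figure D5:**
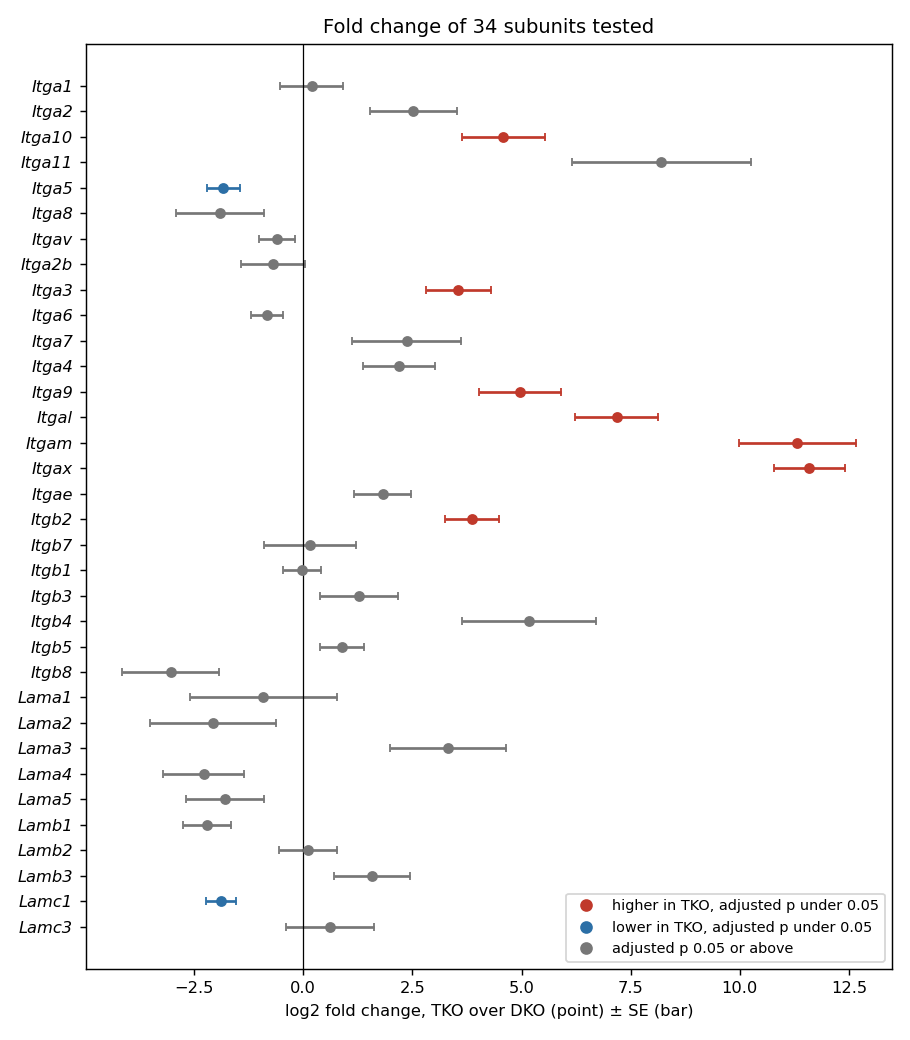
Log2 fold change of TKO over DKO (points) with its SE (bars) for all but 1 of the 35 subunits tested, grouped by role from top to bottom; red and blue mark those that passed an adjusted p of 0.05 higher and lower in TKO. The 7 integrin chains called higher are red, Itga5 and Lamc1 are blue, and Itga11 and Itgb4 lie right of 0 with wide bars. Itgam and Itgax lie farthest to the right, and their plotted values, at 0 counts in DKO, depend on the prior count.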

How the data were processed

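Per the labels' protocols, RNA of about 100 mg of tumour was depleted of rRNA, enriched on oligo(dT) and run on a HiSeq. The deposited values are raw gene counts by the authors; the submitters' processing notes name STAR 2.6.1 and mm10. No source used here gives the annotation release. Counts of either strand were used, since the first strand column held 50.2 to 51.3% of stranded counts. The series table held the same counts (0 genes differed). Reads assigned to no gene, 18.4 to 21.6% of those listed, stayed out of library sizes. IDs were matched through GENCODE M21 (55240 of 56196), which gave positions and merged exon lengths.

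Genes passing filterByExpr (minimum count 10) were tested with edgeR 4.0.16 (R 4.3.3): TMM factors, robust quasi-likelihood F test, no covariate, Benjamini-Hochberg adjustment. SEs derive from the fold change and F. DESeq2 1.42.0 and limma 3.58.1 (voom) were alternatives, as were RLE factors, library totals, other filters, single strand columns, a sex covariate, a replicate block and leaving out each library. edgeR's test was tried on simulated data. The floor of 3 counts covers counting error only, and at these depths 1 library's floor was 0.133 to 0.176 CPM.

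Members were named by role, except 1 laminin chain that is counted but not reported here; adhesion genes were named if past 0.05 (up to 5 per list) or among the 2 most abundant. Members, lists and tests were chosen with earlier results of these data known. Cyr61 and Ctgf were matched as Ccn1 and Ccn2.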

Additional observations from a re-analysis of the deposited data

How the results depend on the processing

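The count of subunits higher in TKO was 7, and 1 with only genes at 1 CPM or more in a library of each group, 4 with sex as a covariate and 0 under the replicate block (edgeR; 10 at an unadjusted p under 0.05); the count lower was 2, and 0, 2 and 0 in these settings (6 at an unadjusted p under 0.05 under the block), and 4 by DESeq2, which called 10 higher; limma-voom called 5 higher and 3 lower. Over all genes 7.36% were called, and 1.19% with the 1 CPM filter, 7.74% with sex, 1.92% under the block, 18.8% by DESeq2 and 7.32% by limma-voom. Leaving out 1 library gave 0 to 10 higher and 0 to 5 lower. For the adhesion lists, 6 higher became 2, 7 and 3 in the same 3 settings and 13 by DESeq2, and 3 lower became 1, 3 and 1, 8 by DESeq2 and 5 with no filter; leaving out 1 library gave 0 to 10 and 0 to 3. The replicate block rests on shared numbers only: same-numbered tumours did not deviate together (correlations of -0.02 to 0.01). The cause of these changes was not tested. RLE factors, library totals and either strand column changed no count of subunits.

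Reversed log2 fold changes were those of Itga1 by limma-voom (-0.24), with sex (-0.0032) and under the block (-0.036); Itgb7 with sex (-0.14); Itgb1 with library totals (0.031); and Lamb2 by limma-voom (-0.27), with sex (-0.10) and under the block (-0.29). None of these 4 passed the test. Leaving out 1 library gave -0.53 to 0.66 for Itga1, -0.14 to 2.92 for Itga7, -0.29 to 1.72 for Itgb7, -0.48 to 0.18 for Itgb1, -3.28 to 0.34 for Lama1 and -0.96 to 0.52 for Lamb2. Over all alternatives, the adjusted p of the 9 called subunits ran from 7.1e-16 to 0.151. Subunits with few counts, such as Itgad and Itgb2l, could not be tested at this depth.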
